A study of Arabidopsis thaliana with 18 samples.

Results

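Silwet is an organosilicone surfactant that lets a watery spray wet and enter leaves, and 0.02% silwet was the carrier in every treatment of these plants. The 6 arrays described here came from Arabidopsis thaliana accession Mt-0 that received 0.02% silwet with no other agent. They were chosen by the serial numbers in the array titles: 73, 74 and 75 form set 1, and 76, 77 and 78 form set 2, each with replicates 1, 2 and 3. They are 6 of 18 Affymetrix ATH1 arrays of total RNA. The other arrays are 3 further silwet arrays, called set 3, and 9 arrays from plants given SA, read here as salicylic acid, at 0.30 mM in 0.02% silwet, also in 3 sets of 3. The labels do not say what separates the sets, which tissue was taken, how old the plants were or when they were harvested. Nothing in the labels says that replicates are separately grown plants, so a p-value reflects how far these particular arrays vary, and that variation can be technical in part. Expression of a gene in a bulk extract is a sum over cells, so fewer cells of a type and less RNA per cell cannot be told apart.

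Carrier-only plants serve as the baseline against which a sprayed hormone is read, and a transcript that moves between sets of carrier plants moves that baseline. Leaf transcripts are known to respond to wetting, touch, wounding and time of day. Genes for chitinases, lectins and detoxifying transporters are known to respond to stress in Arabidopsis, whereas expansins and pectin-modifying enzymes act in the growing cell wall. The naming tables give locus codes with no product, so a family stated below for a locus code is background knowledge and not a value of these data.

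Values are MAS5 signals on a linear scale that the authors had brought to one trimmed mean. A difference is given as set 2 minus set 1 in log2(signal + 16), which understates changes of weakly expressed genes, with its standard error (SE) from limma. The difference is the mean of 3 pairs. Its SE comes from the residual spread over all 18 arrays and does not measure the spread of those 3 pairs alone. Median signal ran from 30.9 to 37.3 on the 6 arrays. Green tissue was represented on each of them: LHCB4.1, a light-harvesting antenna protein, had signals of 2840.1 to 4124, and RCA, which activates Rubisco, of 2249 to 3358. PYK10, a beta-glucosidase best known from roots, lay between 67.9 and 228. As a sign of RNA quality, signal at the 3′ end over signal at the 5′ end, averaged over 3 control genes in log2, was -0.59 ± 0.17 in set 1 and -0.59 ± 0.06 in set 2 (SD, n = 3 each, two-sided exact permutation p = 1, where 0.1 is the smallest that 3 against 3 allows). That average joins unlike ratios: actin had means of -2.41 in set 1 and -2.42 in set 2, GAPDH 0.060 and -0.0087, and ubiquitin 0.59 and 0.66. Equal means hide single arrays: replicate 1 of set 1 had an average ratio of -0.39, against -0.67 and -0.70 for replicates 2 and 3. Its median correlation with the other arrays of the series, 0.9234, was the lowest of the 6 (others 0.9337 to 0.9625). On the first principal component of all 18 arrays, which held 45.0% of the variance, silwet set 1 lay at -1.87, 5.73 and 24.1 and silwet set 2 at -9.49, -20.6 and -7.59. A second number in the titles, whose meaning the labels do not give, was higher in set 1 than in set 2 within each replicate number. Whatever it stands for and the set cannot be told apart.

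Between the sets of carrier plants, more transcripts were lower in set 2 than higher, and those that were lower differed more. Of 13647 tested probe sets, 149 passed at an adjusted p of 0.05 (limma), which is 1.09%. Of these, 52 were higher in set 2 (0.381%) and 97 were lower (0.711%). Over every tested probe set, the median difference was -0.02. The 52 had a median difference of 0.88, and 19 of them reached 2-fold. The 97 had a median of -1.36, with 77 at 2-fold or more and 19 at 4-fold or more. All 149 had the same sign in the 3 replicate pairs, against 40.7% of tested probe sets. The signals of the sets did not overlap for 49 of the 52 and 91 of the 97, against 15.4% of tested probe sets. The calls rest on the mean of these same 3 pairs. Shared signs and separate sets therefore largely follow from being called and are no further support.

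**Figure D1:**
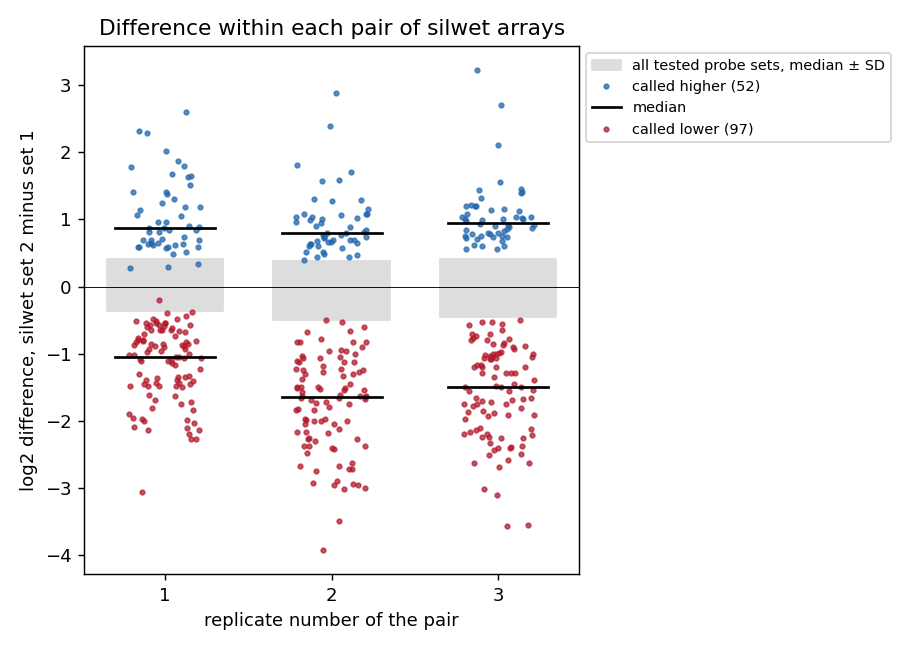
Log2 difference, silwet set 2 minus set 1, within the pair of arrays that carry replicate number 1, 2 or 3 (x axis), for the 52 probe sets called higher and the 97 called lower. Each point is a probe set, black bars are medians, and grey boxes show the median ± SD over all 13647 tested probe sets; the lower group has its smallest median in pair 1 (-1.05, against -1.64 and -1.50).

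The pairs were not equal. In the pair numbered 1 the 97 had a median difference of -1.05 and 52 of them were more than 2-fold lower, against -1.64 with 82 in the pair numbered 2 and -1.50 with 75 in the pair numbered 3. For the 52, the medians were 0.88, 0.80 and 0.95. Same-numbered arrays of the 2 sets deviated together, with correlations of 0.52, 0.34 and 0.52 across probe sets. Arrays were paired by the replicate number in their titles, which was a block in the fit. Without that block the counts were 12 higher and 66 lower, all among the 149. Counts moved by over 1.5 times when any one of the 6 arrays was left out. Without replicate 1 of set 1 they rose to 87 higher and 189 lower, and without any one of the other 5 arrays (replicate 2 or 3 of set 1, replicate 1, 2 or 3 of set 2) they lay between 16 and 25 higher and between 49 and 60 lower. With array weights, 1166 were higher and 1401 lower, and these held all 149.

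Names were available for only part of the 149. The platform table gave exactly 1 gene for 16 of the 52, of which 5 had a symbol and the others a locus code, and for 50 of the 97, of which 7 had a symbol. A further 35 and 45 were unnamed here. The largest decreases in the whole comparison were unnamed: 265984_at fell from 414, 562 and 182 to 35.5, 22.1 and 25.8, and 266752_at from 398, 576 and 907 to 80.1, 61.4 and 63.2. The unnamed probe sets with the largest increases were 260101_at and 266385_at, and the named AT4G12490 exceeded both. The first, 260101_at, had signals of 13.4, 192 and 105 in set 1 and 91.8, 308.1 and 1118 in set 2, and 266385_at had 575, 564 and 2770.1 in set 1 and 2922, 3021 and 4099 in set 2. The sets overlapped for 260101_at, and the other 3 did not overlap.

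Of the genes with a name, AT2G43620, AT2G20720 and AT3G22060 fell furthest. AT2G43620, of the chitinase family, had signals of 183, 382 and 372 in replicates 1, 2 and 3 of set 1 and of 25.3, 44.7 and 46.6 in set 2. Every set 2 array lay far below every set 1 array. The difference was -2.54 ± 0.25 (SE, n = 3 pairs, limma adjusted p = 2.43e-04). AT3G22060, a secreted relative of the cysteine-rich receptor-like kinases, went from 231, 527 and 552 to 72.9, 55.2 and 91.5, a difference of -2.27 ± 0.33 (limma adjusted p = 0.00200). AT3G16530, a legume-type lectin, went from 624, 869.6 and 619 to 328, 142 and 90.11 (-1.99 ± 0.41, limma adjusted p = 0.0252). Its sets did not overlap, but the pair numbered 1 differed by only -0.90, against -2.48 and -2.58 in the others. AT3G09405 fell from 141, 264 and 289 to 55.6, 36.9 and 53.4 (-1.89 ± 0.25). AT1G72060 fell from 341, 148 and 297 to 73.1, 37.9 and 34.6 (-2.08 ± 0.29).

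MATE proteins export small molecules such as toxins, and 2 of the 12 largest decreases among probe sets with 1 named gene were MATE genes. This share was not tested. MATE genes among all tested probe sets were not counted, so it says nothing about the family. AT3G23550 went from 138, 215 and 122 to 46.1, 15.2 and 21.2, and AT2G04050 from 162, 233 and 331 to 54.0, 46.3 and 56.8. Neither gene's sets overlapped, and the differences were -2.03 ± 0.32 and -1.87 ± 0.32 (limma adjusted p = 0.00415 and 0.00684). AT2G32020, an acetyltransferase of the GNAT family, fell from 247, 168 and 201 to 48.6, 42.9 and 29.9 (-1.97 ± 0.24, limma adjusted p = 6.95e-04). Its neighbour in the RefSeq gene order and relative, AT2G32030, was also called, at -1.18 ± 0.26, and these were the only called genes with 1 named gene each that lay next to each other. AT2G21640, a mitochondrial protein known to rise under oxidative stress, fell from 544, 454 and 518 to 166, 88.4 and 84.5 (-2.07 ± 0.33).

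AT2G20720 fell from 167, 248 and 333 to 39.7, 25.6 and 24.5 (-2.50 ± 0.31). AT2G41730, measured by a probe set whose suffix _x_at marks probes shared with other sequences, was at 1449.9, 1305 and 1628 in set 1. In set 2 it was at 462, 232 and 275 (-2.18 ± 0.34). AT2G22880, a VQ motif protein of the kind that binds WRKY factors, was near the floor of the scale in set 2: its signals were 55.6, 72.1 and 102 in set 1 and 2.16, 0.954 and 18.5 in set 2 (-2.04 ± 0.38, limma adjusted p = 0.0141). For all 12, the sets did not overlap.

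Of these 12 calls, 9 remained when any single one of the 6 arrays was left out. Without replicate 3 of every group all 12 ended (limma adjusted p from 0.0616 to 0.695). Without replicate 2 of every group 8 ended (0.0627 to 0.430). AT2G04050 lost its call without replicate 2 or 3 of set 2 (limma adjusted p from 0.05205 to 0.0662), and without the replicate block (0.0575). AT2G22880 lost it without replicate 2 or 3 of set 1 or replicate 1 or 2 of set 2 (0.0824 to 0.104) and with a pseudocount of 64 (0.0690). With a pseudocount of 1 AT2G22880 was not among the tested probe sets. AT3G16530 lost its call without replicate 2 or 3 of either set (0.0933 to 0.193), with only the 9 silwet arrays (0.1075) and with pairs as a random block (0.0661).

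**Figure D2:**
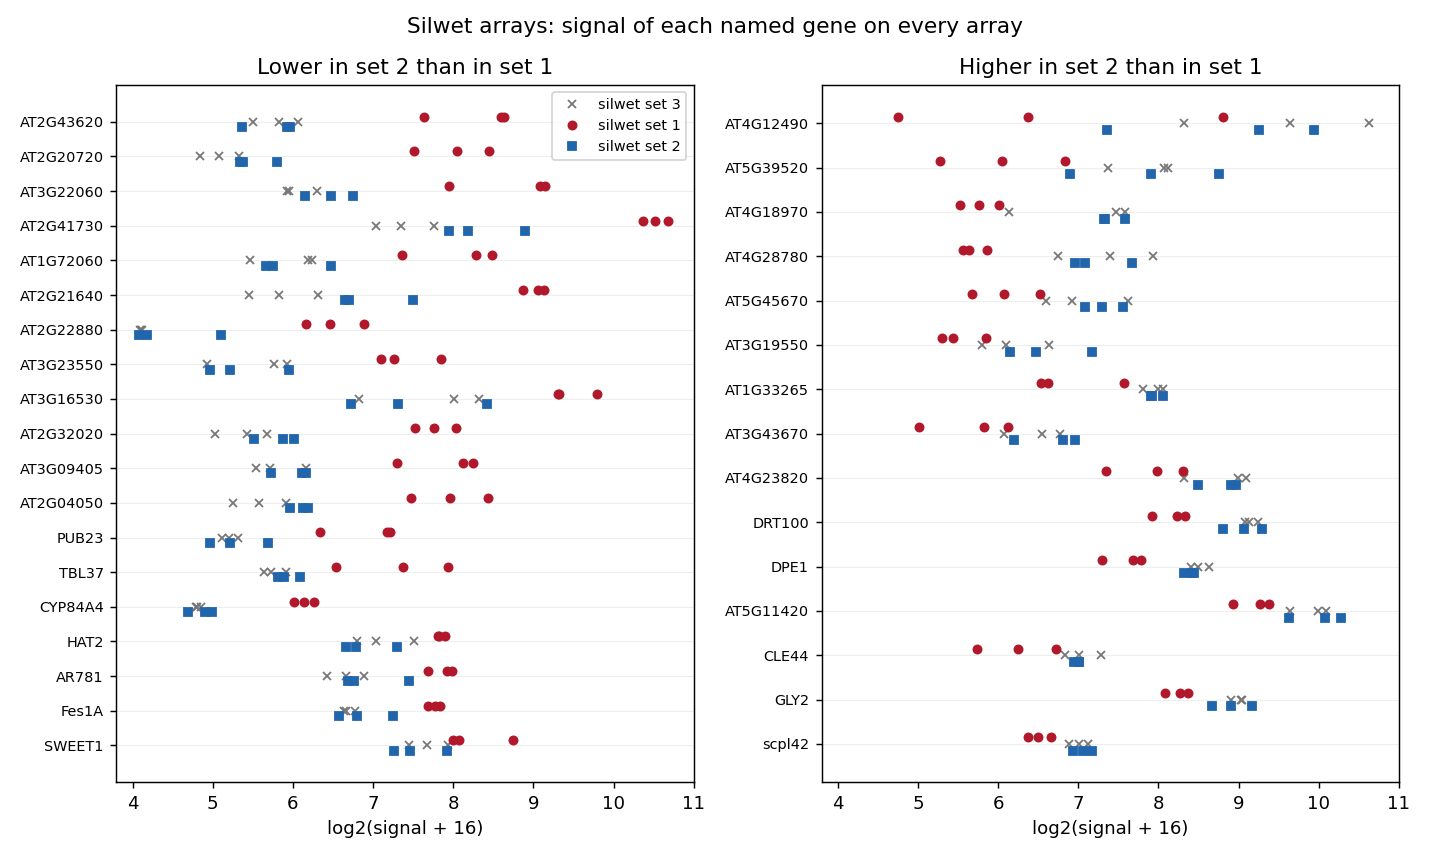
Signal, as log2(signal + 16) on the x axis, of each called gene with 1 named gene among the 12 largest decreases or increases or with a symbol, on the 3 arrays of silwet set 1 (red circles), set 2 (blue squares) and set 3 (grey crosses). On every line of the left panel the set 1 arrays lie above the set 2 arrays, and AT4G12490 is the one line of the right panel on which the 2 sets overlap.

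A further 7 lower genes were picked after their values had been seen, because their families are familiar. AT5G43450 and AT2G38240 are oxygenases that use 2-oxoglutarate. The first went from 1325, 1339 and 1210.2 to 515, 313 and 259 (-1.84 ± 0.21, limma adjusted p = 4.94e-04), and the second was at -1.72 ± 0.37, with overlapping sets. AT4G17260, a lactate dehydrogenase of fermentation, went from 359, 668 and 711 to 125, 177 and 142 (-1.81 ± 0.25), and AT1G66100, of the thionin family of antimicrobial peptides, from 960.3, 809 and 1123 to 196, 319 and 346 (-1.72 ± 0.29). AT4G28140, of the AP2/ERF transcription factors, was at -1.20 ± 0.18 and AT5G44050, another MATE protein, at -1.09 ± 0.21. With AT2G32030 these make 7, of which AT5G43450, AT4G17260 and AT4G28140 remained called when any single array was left out. All 7 calls ended without replicate 3 of every group. AT1G66100 lost its call without replicate 1 of set 2 (limma adjusted p = 0.0521), AT2G38240 without replicate 2 or 3 of set 1 or replicate 1 or 2 of set 2 (0.0855 to 0.236), and AT2G32030 and AT5G44050 without any array other than replicate 1 of set 1 (0.0610 to 0.267 and 0.0503 to 0.111). The calls of AT2G38240 and AT2G32030 also ended without the block and under other settings.

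Among the 97, 7 genes had a symbol. CYP84A4, a cytochrome P450 of arabidopyrone synthesis, was at 48.7, 60.8 and 54.5 in set 1 and 14.0, 15.8 and 9.83 in set 2 (-1.28 ± 0.14, limma adjusted p = 2.56e-04). Its set 2 signals lay near the floor, below the added 16, and with a pseudocount of 1 CYP84A4 was not among the tested probe sets. PUB23, a U-box ubiquitin ligase that dampens immune signalling, fell from 64.7, 132 and 128 to 15.3, 21.0 and 35.7 (-1.62 ± 0.30), and TBL37, of the wall acetyltransferase family, from 77.2, 229 and 149 to 43.3, 40.2 and 52.0 (-1.35 ± 0.27). HAT2, a homeodomain factor that auxin induces, went from 222, 209 and 210.2 to 85.7, 94.5 and 141 (-0.93 ± 0.20). Fes1A, a partner of the Hsp70 chaperone, was at -0.89 ± 0.17, AR781 at -0.90 ± 0.19 and SWEET1, a glucose transporter, at -0.72 ± 0.14. CYP84A4 kept its call when any single array was left out, but lost it without replicate 3 of every group (limma adjusted p = 0.0645). The other 6 each lost it without 4 or 5 of the arrays, among them replicate 2 of set 2 in each case, with adjusted p up to 0.252, and PUB23, HAT2, AR781 and SWEET1 lost it without the block (0.0561 to 0.404).

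Among the increases of probe sets with 1 named gene, 3 of the 12 largest were GDSL-motif esterases or lipases, a large family of secreted enzymes that act on lipids and cuticle. AT4G18970 had signals of 30.2, 48.5 and 38.3 in set 1 and of 145, 176 and 143 in set 2. AT4G28780 rose from 31.1, 42.1 and 33.9 to 109, 188 and 119, and AT5G45670 from 35.2, 76.2 and 51.5 to 119.5, 172 and 141. No set 2 array lay within the range of set 1 for any of the 3. The family's share of the calls was not tested. Its members among all tested probe sets were not counted, so these 3 say nothing about the family. Their differences were 1.64 ± 0.29, 1.55 ± 0.27 and 1.22 ± 0.20 (SE, n = 3 pairs, limma adjusted p = 0.00784, 0.00766 and 0.00637).

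The largest increase belonged to AT4G12490, of the lipid transfer and protease inhibitor family, which has close copies beside it in the genome. AT4G12490 stood at 10.9, 66.6 and 432 in set 1 and at 147, 594 and 963 in set 2. The sets overlapped; replicate 3 was highest in both. Within pairs the differences were 2.60, 2.89 and 1.13, for a mean of 2.21 ± 0.35 (limma adjusted p = 0.00394), and without the block the call ended. AT5G39520 followed at 1.81 ± 0.34, with signals of 22.6, 97.7 and 50.3 against 103, 224 and 417.

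AT3G43670, a copper amine oxidase, rose from 16.2, 40.4 and 53.7 to 57.5, 95.7 and 108 (1.003 ± 0.20), and AT4G23820, of the pectin lyase-like family, from 146, 299 and 238 to 344, 486 and 462 (0.91 ± 0.13, limma adjusted p = 0.00207). AT5G11420, a DUF642 cell wall protein, rose from 474, 599 and 649 to 773, 1062 and 1221 (0.80 ± 0.14). DRT100, a leucine-rich repeat protein named for tolerance of DNA damage, rose from 227, 307 and 284 to 430.3, 611 and 521 (0.89 ± 0.17). DPE1, the plastid enzyme that recycles short glucans during starch breakdown, rose from 205, 189 and 141 to 326, 303 and 334 (0.81 ± 0.15). AT3G19550 and AT1G33265 were at 1.07 ± 0.24 and 1.05 ± 0.22. The symbols GLY2, a cytosolic glyoxalase, CLE44, a peptide that holds back xylem formation, and scpl42, a serine carboxypeptidase-like protein, were at 0.67 ± 0.14, 0.75 ± 0.17 and 0.55 ± 0.12. AT3G45310, a cysteine protease of the aleurain kind picked after its value had been seen, was at 0.74 ± 0.17.

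Of the 12 largest increases with 1 named gene, 10 ended without the replicate block (limma adjusted p from 0.0516 to 0.592), with DPE1 and AT4G28780 the exceptions, and GLY2, CLE44 and scpl42 ended there as well (0.0656 to 0.213). AT4G12490, AT4G23820 and AT5G45670 remained when any single array was left out. All 12 ended without replicate 2 of every group (limma adjusted p from 0.0822 to 0.432) and without replicate 3 of every group (0.0585 to 0.917). AT5G39520 ended without replicate 3 of either set (0.0933 to 0.105), AT4G18970 without replicate 2 or 3 of set 1 or 1 of set 2 (0.0514 to 0.0594), AT4G28780 without replicate 2 or 3 of set 1 or 2 of set 2 (0.0511 to 0.0762) and DPE1 without replicate 2 or 3 of set 1 or 3 of set 2 (0.0544 to 0.1134). The calls of DRT100, AT5G11420, AT1G33265, AT3G43670, AT3G19550, GLY2, CLE44, scpl42 and AT3G45310 ended without at least 4 of the 6 arrays, among them replicates 2 and 3 of set 2 in each case (up to 0.303).

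Of 28 lists by function, 24 had a tested member, and of their 59 tested members HAT2 alone was called (lower), a share of 1.69% beside 1.09% of all tested probe sets. Of 292 tested members of 30 symbol families, 2 were higher (scpl42 and CLE44) and 4 lower (PUB23, TBL37, CYP84A4 and SWEET1), together 2.05%. The difference of these shares from that of all probe sets was not tested. The median difference was -0.12 over the list members and 0.03 over the family members, beside -0.02 over all tested probe sets. The lists had no tested gene of flowering, ethylene, gibberellin or brassinosteroid, or mineral nutrition.

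Of 4 SA genes none passed, with a median of 0.13. UGT76B1, which glucosylates SA, was at 27.4, 119 and 213 in set 1 and 38.9, 11.5 and 82.6 in set 2 (-1.06 ± 0.39, limma adjusted p = 0.289), and the sets overlapped. It passed without replicate 1 of set 1 (-1.67, adjusted p = 0.0128). The SA methyltransferase BSMT1 stood at 0.73 ± 0.47. None of 4 genes of touch and wounding passed (median -0.43), from CML38, a calmodulin-like protein, at -0.63 ± 0.29 to PUB24 at -0.19 ± 0.18. Both tested detoxification genes, GSTU25 and UGT73B5, were at -1.04 ± 0.28 and -0.85 ± 0.25 and missed the threshold (limma adjusted p = 0.113 and 0.149). UGT73B5 passed without replicate 1 of set 1 (-1.20, adjusted p = 0.0117), and GSTU25 passed without replicate 1 of every group (-1.33, adjusted p = 0.0311) and when the 6 silwet arrays were fitted alone with the block (adjusted p = 0.0360). The fit of the 6 silwet arrays leaves 2 residual degrees of freedom, against 10 in the fit of all 18 arrays. The WRKY factors WRKY22 and WRKY53 were at -0.43 ± 0.16 and -0.12 ± 0.32, and the sign of the latter turned without replicate 2 of set 2. The receptor-associated kinase BIK1 was at -0.54 ± 0.21. In the list of endoplasmic reticulum folding, the median of 6 was -0.12, and BZIP60, a factor of the unfolded protein response, was lowest at -0.61 ± 0.21.

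The expansins, which loosen walls, had a median of 0.25 over 9 members with none called. EXPA8 was highest, at 146, 94.4 and 104 in set 1 and 200.5, 506 and 514 in set 2. The sets did not overlap, but the difference of 1.60 ± 0.42 missed the threshold (limma adjusted p = 0.102), and passed without replicate 1 of set 1 (2.21, adjusted p = 0.00727) and in the fit of the 6 silwet arrays (adjusted p = 0.0403). Of 15 listed auxin genes, 4 were tested, with a median of -0.52 beside -0.02 over all tested probe sets. They ran from HAT2, the only one called, to GH3.3 at -0.42 ± 0.45. The share of all tested probe sets below 0 was not counted. In the jasmonate list, THI2.1, a thionin, was at -0.93 ± 0.33 and PDF1.2b, a defensin, at 0.92 ± 0.59, with none called. THI2.1 passed in the fit of the 6 silwet arrays (adjusted p = 0.0197) and otherwise only with array weights. Of 4 genes of phenylpropanoid synthesis, AT3G13610, a hydroxylase of scopoletin synthesis, was at 1.101 ± 0.31 (limma adjusted p = 0.131) and DFR, of anthocyanin synthesis, at -0.88 ± 0.47. The first passed in the fit of the 6 silwet arrays (adjusted p = 0.0293), and DFR without replicate 1 of set 1 (adjusted p = 0.0492). Each otherwise passed only with array weights. Cold and drought genes had a median of 0.34, with COR15B at 0.49 ± 0.28, COR47 at 0.44 ± 0.19 and LTI30 at -0.10 ± 0.24. The glucosinolate genes BCAT4 and AT2G31790 were at 0.21 ± 0.28 and 0.03 ± 0.23. Nuclear photosynthesis genes ran from -0.69 ± 0.21 for LHCB4.3 to 0.12 ± 0.22 for LHCB4.1. The signs of PDF1.2b, LTI30, AT2G31790 and LHCB4.1 turned when some replicates or arrays were left out.

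Among the families, the 66 tested genes of the plastid genome had a median of 0.02 and none was called. The lowest, psaA of photosystem I, was at 782, 677 and 1000.1 in set 1 and 198, 333 and 709 in set 2 (-1.12 ± 0.47, limma adjusted p = 0.387), with overlapping sets. In the fit of the 6 silwet arrays psaA and rpl22, a ribosomal protein gene, passed (adjusted p = 0.0485 and 0.0491), and otherwise only with array weights. Mitochondrial genes, 11 tested, had a median of 0.05. Subtilases, 3 tested, had a median of -0.57 with none called, and medians of 0.72, -1.16 and -1.16 in pairs 1, 2 and 3. SWEET sugar transporters had a median of -0.43 over 8, with SWEET1 called, SWEET11 at -0.53 ± 0.19 and SWEET17 at 0.45 ± 0.20. Serine carboxypeptidase-like proteins had a median of 0.31 over 13, with scpl42 called and scpl26 at 0.64 ± 0.15, just short of the threshold (limma adjusted p = 0.0519). It passed under quantile and 75th percentile scaling (0.0474 and 0.0424), with a pseudocount of 64 (0.0473) and without replicate 1 of set 1 (0.74, adjusted p = 0.0287). UDP-glycosyltransferases, the largest nuclear family, had a median of -0.00038 over 29, and 16 trichome birefringence-like proteins had a median of 0.03.

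**Figure D3:**
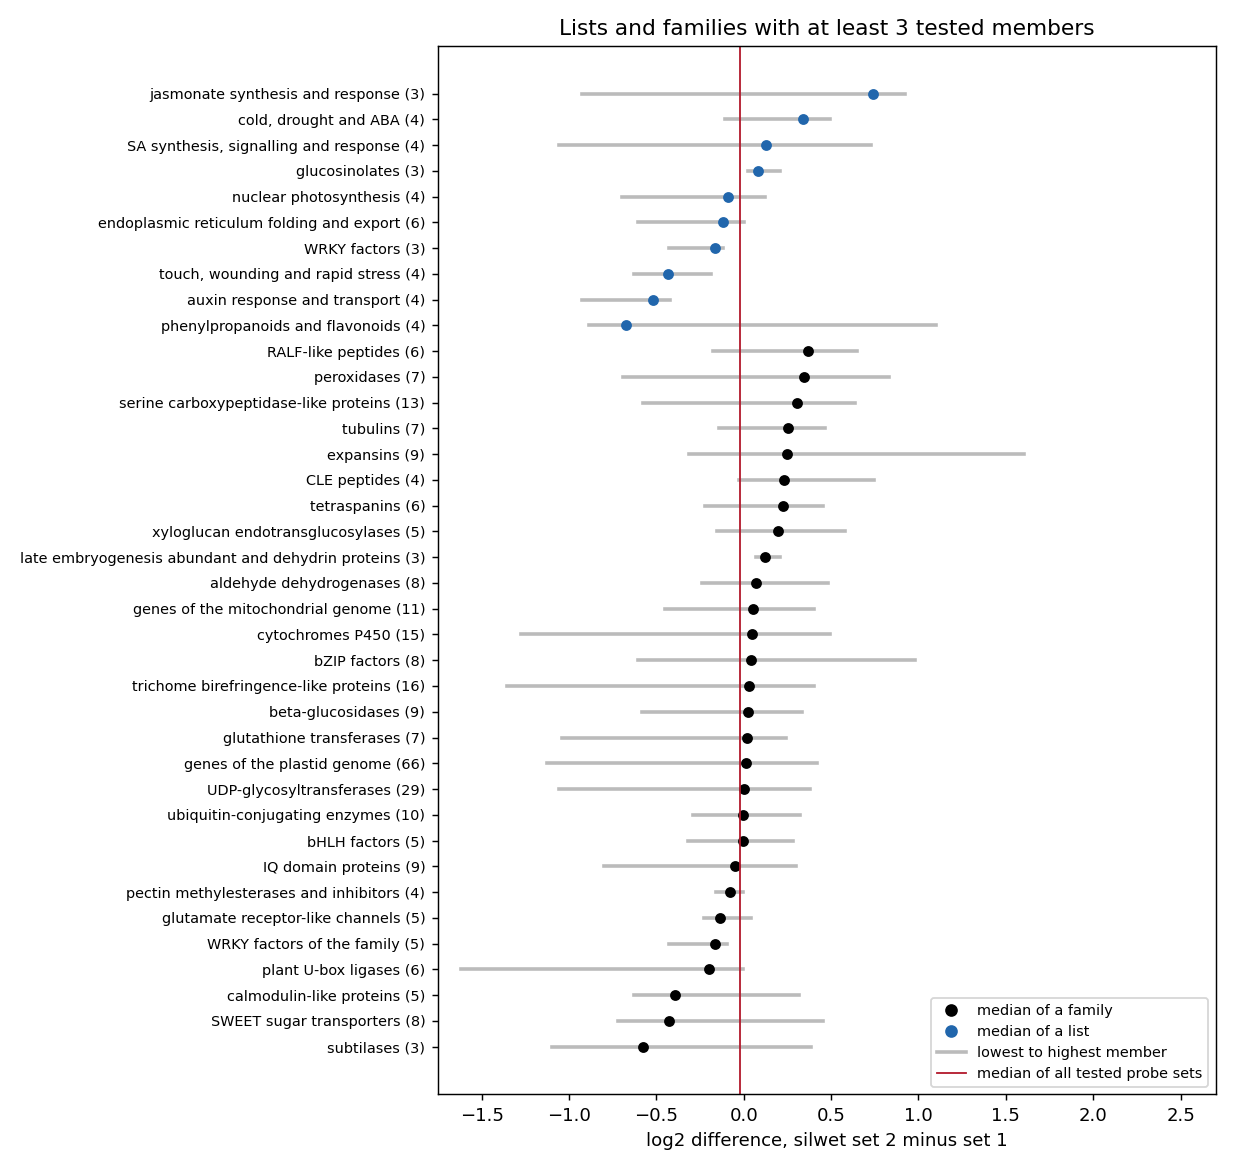
Log2 difference, silwet set 2 minus set 1, of lists (blue) and families (black) with at least 3 tested members; the number tested is in brackets, dots are medians and grey bars run from the lowest to the highest member. The red line marks the median of all tested probe sets (-0.02), and most medians lie close to it while single members range from -1.62 to 1.60.

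The third set of silwet arrays shows where each set stood. Over the 97 lower probe sets, the median of mean signals was 235 in set 1, 68.5 in set 2 and 54.2 in set 3, and over the 52 higher ones it was 105, 238 and 221. Set 3 minus set 2 called none of 13647 probe sets (limma), with 434 at an unadjusted p under 0.05, and set 3 minus set 1 called 2.23%, with 90 higher (0.659%) and 215 lower (1.58%). These comparisons share arrays with set 2 minus set 1. For AT2G43620, set 3 had 29.2, 50.8 and 40.7, close to set 2 and far below set 1. AT4G18970 had 54.0, 161 and 175 in set 3, with replicate 1 nearer to set 1. Replicate 1 of set 3 also stood at 211 for 265984_at, beside 26.6 and 16.3 for its other replicates.

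SA arrays of the same sets share no array with the silwet comparison, although deviations from the group means correlated between an SA array and the silwet array with its number and set. The correlations were 0.55 to 0.64 in set 1 and 0.129 to 0.38 in set 2. For unlike numbers they were -0.61 to 0.19 in set 1 and -0.32 to 0.127 in set 2. Both comparisons also come from the same fit, so a probe set has the same SE in each, and a small SE favours a call in both. The share of all tested probe sets with the same sign in silwet and SA was not counted. Between SA sets 1 and 2 far more changed, with 4503 probe sets called (33.0%), 2530 higher (18.5%) and 1973 lower (14.5%). Of the 52 that were higher in silwet set 2, all 52 were higher in SA set 2 and 46 were called. Of the 97 lower ones, 96 were lower in SA set 2 and 93 were called. Median SA differences were 1.14 and -1.57, beside 0.88 and -1.36 in silwet. AT2G43620 went from 155, 255 and 275 to 47.1, 45.7 and 44.7 with SA (-1.95 ± 0.25), and AT4G18970 from 25.9, 32.0 and 27.4 to 131, 155 and 123 (1.77 ± 0.29).

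**Figure D4:**
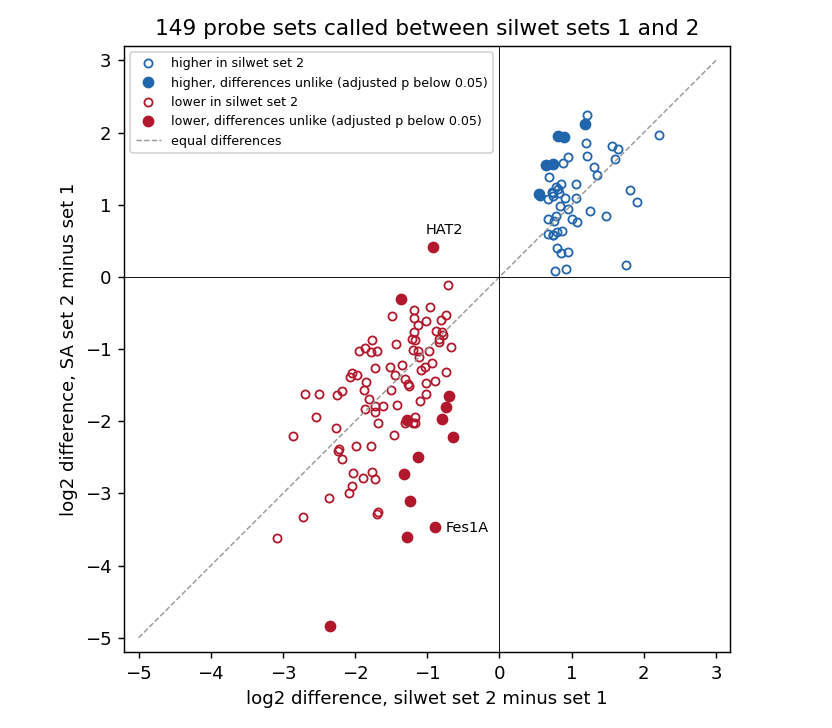
Log2 difference, set 2 minus set 1, in silwet (x axis) and in SA (y axis) for the 149 probe sets called in silwet; the dashed line marks equal differences. Filled points are the 6 of 52 and 13 of 97 whose SA and silwet differences were unlike (limma adjusted p below 0.05); HAT2 is the one lower point with a positive SA difference.

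The test of the difference between SA and silwet called 990 probe sets (7.25%), 383 upward (2.81%) and 607 downward (4.45%). Among them were 6 of the 52, all with the larger change in SA, and 13 of the 97, of which 11 had the larger change in SA. Fes1A was at 191, 213 and 202 in silwet set 1 and 136, 95.1 and 79.3 in set 2, but at 1098, 1089 and 1036 in SA set 1 and 74.3, 94.7 and 80.6 in SA set 2. SA set 1 thus stood apart from every other group. The SA change minus the silwet change was -2.57 ± 0.23 (limma adjusted p = 1.30e-04). HAT2 differed the other way: SA set 1 was low, at 66.4, 85.6 and 109.8, and SA set 2 was at 125, 117 and 118, a difference of 1.34 ± 0.28 from the silwet change (limma adjusted p = 0.0126). CYP84A4 fell more with SA (-0.70 ± 0.19, limma adjusted p = 0.0394), and DPE1, DRT100 and scpl42 rose more, by 1.14 ± 0.21, 1.04 ± 0.24 and 0.61 ± 0.18. The counts of the difference test fell to 139 upward and 299 downward without the replicate block. They fell by over 1.5 times without replicate 1 of set 2 (95 and 288) and replicate 2 of set 2 (151 upward), and upward alone without replicate 2 of set 1 (167) and replicate 3 of set 2 (253).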

How the data were processed

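Signals were computed by the authors with MAS5, per the submitters' processing notes, which give no version for it, and the deposited table holds them as a linear intensity with one trimmed mean for all arrays. No source used here gives a genome build. Gene names came from the table of the platform and from RefSeq TAIR10.1, which served for names and gene order only: of 22810 probe sets, 64 were controls, 13513 had 1 gene (13436 in RefSeq), 503 several and 8730 none named here. No column of another series was found.

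Signals were taken as log2(signal + 16) without further normalization. Tests covered the 60% of Arabidopsis probe sets with the highest mean log2 value, 13647 in all. limma 3.58.1 in R 4.3.3 (lmFit, eBayes with trend) fitted the 6 cells of treatment by set over all 18 arrays, with replicate number as a block and 10 residual degrees of freedom, two-sided, with Benjamini-Hochberg adjustment over all tested probe sets and a threshold of 0.05. The pairing follows the replicate number in the titles. Same-numbered arrays of silwet sets 1 and 2 deviated together (correlations of 0.515, 0.343 and 0.519, against -0.438 to 0.066 for other numbers). Deviations were taken from the mean of each group, which lowers correlations between other numbers when those of the same number are positive. The block gives each number the same effect over all 18 arrays, which these correlations do not cover. On the second principal component replicate 1 lay at -24.6, -20.3 and 26.7 in silwet sets 1, 2 and 3. In SA sets 1, 2 and 3 it lay at -36.6, 5.21 and 18.6. The number of arrays limits the precision. On simulated arrays for this comparison over 13647 probe sets, 50 of 50 changes of 4-fold in each direction and 40 of 50 decreases and 36 of 50 increases of 2-fold were called, as were 11 of 13447 unchanged probe sets. The simulated noise was independent between arrays and had the same spread on each, as the fit assumes. The real arrays need not meet this, so these rates need not hold for them. Tables and plots were made with Python 3.11.15, pandas 2.3.3 and matplotlib 3.10.9.

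Chosen for naming were the 12 genes with the largest call in each direction, up to 12 with a symbol, and list or family members with an unadjusted p under 0.05, among the 4 with the smallest p, or at the end of a list's range. Not every list or family member so chosen is printed here. Unnamed probe sets and 8 genes were picked after their values had been seen. Members, lists and families were chosen with earlier results of these data known. MATE and GDSL genes were not among the families described and were grouped after the calls had been seen. Lists were described by counts and medians only. Alternatives were the block, the arrays fitted, pseudocounts of 1 and 64, quantile and 75th percentile scaling, no filter, array weights and leaving out replicates or arrays. Promoter sequences were not used here.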

Additional observations from a re-analysis of the deposited data

Results flagged for a closer look

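The change from set 1 to set 2 differed between SA and silwet by the test of the difference itself for 383 probe sets upward and 607 downward. Of the genes named here, 11 were among them. The SA change minus the silwet change was -3.96 for AT3G13610, -3.65 for UGT76B1, -2.57 for Fes1A, -1.90 for PUB24 and -0.70 for CYP84A4 (limma adjusted p from 1.30e-04 to 0.0394). It was 1.53 for AT2G31790, 1.34 for HAT2, 1.16 for scpl35, 1.14 for DPE1, 1.04 for DRT100 and 0.61 for scpl42 (limma adjusted p from 0.00624 to 0.0479). AT3G13610 had signals of 5.75, 15.5 and 66.3 in silwet set 1 and 53.6, 36.6 and 136 in silwet set 2, against 593, 594 and 573 in SA set 1 and 44.3, 59.4 and 109.6 in SA set 2. UGT76B1 was at 1069.7, 1271 and 1632 in SA set 1 and at most 213 on every array of silwet sets 1 and 2 and SA set 2. On the first principal component the SA set 1 arrays lay at 52.8 to 67.7, above every other array. Their part in these differences was not tested.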

How the results depend on the processing

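Between silwet sets, with replicate number as a block, 52 probe sets were higher and 97 lower. With no replicate block, as opposed to the pairing used, 12 were higher and 66 lower, and with pairs of replicate and set as a random block 15 were higher and 71 lower. Fitting only the 6 silwet arrays gave 92 and 248, only the 9 silwet arrays 19 and 67, and array weights 1166 and 1401. Pseudocounts, scalings and no filter gave 40 to 61 higher and 80 to 113 lower. Leaving out replicates or arrays gave 0 to 144 higher and 3 to 290 lower (0 and 3 without replicate 3 of all cells, 1 and 19 without replicate 2, 144 and 290 without replicate 1). In these fits 2 arrays remain in a cell, so a call can end without a smaller difference. Of 42 called named genes none was called under all alternatives, and 36 ended without replicate 2 and 42 without replicate 3. All 42 kept their sign. Leaving out a whole replicate could not turn it, because each of the 42 had the same sign in all 3 pairs. In SA, array weights gave 3801 higher, and leaving out replicates 1038 to 2172 higher and 1175 to 1750 lower. The difference test gave 139 and 299 with no replicate block, 1477 and 1170 with random pairs, 1788 and 1173 with array weights, and 19 to 273 and 140 to 527 on leaving out replicates or arrays. Of 54 genes chosen for naming that did not pass, not all of them printed here, 40 passed with array weights, 8 in the fit of the 6 silwet arrays and 8 without replicate 1. In the fit of the 6 silwet arrays these included SBT3.5, a subtilase (-1.10, limma adjusted p = 0.0420), and BZIP61 (0.98, limma adjusted p = 0.0293). Signs turned for AT2G31790 (-0.055 with array weights, -0.14 to 0.16 on leaving out replicates or arrays), LHCB4.1 (-0.0096 to 0.30), LTI30 (-0.35 to 0.11), PDF1.2b (-0.040 to 1.69) and WRKY53 (-0.29 to 0.16). Of 722 recomputed list medians, 47 moved by more than the spread between pairs. The cause of these shifts was not tested.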
